A study of Mus musculus with 2 samples.

Results

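The genes described here are 10 that red pulp macrophages of the spleen use to recycle iron or are recognised by: Spic, Hmox1, Slc40a1, Cd163, Slc11a1, Fth1, Ftl1, Vcam1, Blvrb and Adgre1. They were taken by name, through the RefSeq accession that each array probe carries, and are 10 of the 20651 genes so matched. Together they had 14 probes, 6 genes with 1 probe and 4 genes with 2. RNA came, per the labels, from mouse cultures of the type Th9, the helper T cell type that makes IL-9. One culture carried floxed Sirt1 alleles and a Cre recombinase under Cd4 (genotype SIRT1flox/flox-CD4-Cre, called knockout in its title), and the other was wild-type. The labels describe naive CD4 T cells sorted from spleen and lymph node. Both cultures received 2 µg/ml of anti-CD3, 2 µg/ml of anti-CD28, 100 U/ml of human IL-2, 10 ng/ml of IL-4 and 2 ng/ml of TGFβ1. Their length is given as 5 days in one label and 5 to 6 in another. The mice's strain, age, sex and number, and the exons flanked by loxP sites, are not given in the sources used here.

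Red pulp macrophages engulf aged red blood cells. Haem from the digested haemoglobin is opened by haem oxygenase, the freed iron is stored in ferritin or leaves the cell through ferroportin, and the remaining pigment is reduced by biliverdin reductases. SPI-C, an ETS family transcription factor, is needed for these macrophages to form in mice. Several of the genes are not restricted to them: ferritin is made by nearly every cell, VCAM-1 by activated endothelium and stroma, and NRAMP1 by neutrophils and monocytes too.

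Each genotype had 1 one-colour array, so the differences below could not be checked in a replicate and nothing could be tested between the genotypes. Values are the scanner's processed signal, in intensity units of each array. Signals and their sums over a list are given unscaled, and a sum is carried by its brightest genes. A difference is the log2 signal minus the 75th percentile of the array's gene spots (558 on the array labelled knockout and 584 on the wild-type array), knockout minus wild-type. The ± beside it is the scanner software's error for the probe on the 2 arrays, which covers the reading of the spots and not differences between mice or cultures. In these arrays 65.3% of gene spots on the array labelled knockout and 57.1% on the wild-type array were well above background, and no gene spot was saturated. The Sirt1 probe gave 2920 on the array labelled knockout and 3240 on the wild-type array, a difference of -0.08 ± 0.20. With the deleted exons and the probe's place in the transcript unknown, this does not check the label. All 12 T cell markers examined were well above background on both arrays. Il9 was not, with signals of 7.36 on the array labelled knockout and 5.48 on the wild-type array. All 10 B cell markers and all 17 measured markers of red pulp macrophages beyond the 10 genes were also well above background on both arrays. Signal of cells other than T cells was thus present on both arrays, although the labels describe sorted T cells. The samples are called here by their labels, and whether the RNA came from such cultures alone could not be checked. In such mixed RNA, more cells of a type and more RNA per cell cannot be told apart.

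Of the 10 genes, 9 were well above background on both arrays, and after scaling all 9 were higher on the array labelled knockout at their brightest probe. For Ftl1 (0.05 ± 0.20) and Blvrb (0.06 ± 0.20) this was less than the scanner error, and their unscaled signals were slightly lower on that array. Cd163 was well above background on neither. Vcam1, Adgre1 and Slc11a1 were at least 2-fold higher, Spic lay just under that mark, and 0 of the 9 were 2-fold lower. Among the 12958 genes measured on both arrays, 3.97% were at least 2-fold higher and 3.63% at least 2-fold lower (7.6% in all), and 50.4% were higher by any amount. The median difference was 0.69 over the 9 genes and 0.00 over all 12958. The genes were chosen with earlier results of these arrays known, so these counts describe them and test nothing. Of the 9, 7 differed by more than their scanner error, which is also true of 60.6% of all genes.

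**Figure D1:**
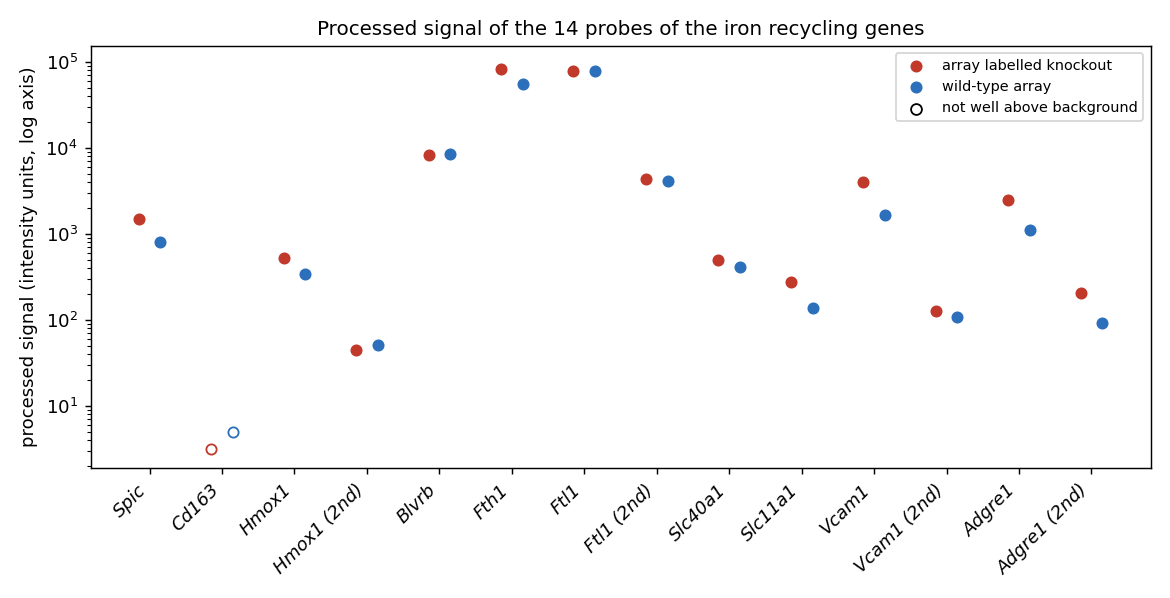
Processed signal (intensity units, log axis) of all 14 probes of the 10 genes, with the array labelled knockout in red at the left of each pair and the wild-type array in blue at the right; bars are the scanner's error and are mostly smaller than the points, and open points are not well above background (drawn without error). The Cd163 probe lies below 10 on both arrays, while the brighter probes of Vcam1 and Adgre1 and the probes of Spic and Slc11a1 sit visibly higher on the array labelled knockout.

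Spic encodes SPI-C, the transcription factor named above. Its probe gave a signal of 1510 on the array labelled knockout and 801 on the wild-type array. The difference was 0.98 ± 0.20, a 1.97-fold higher signal, which 4.15% of all measured genes exceeded. It is the gene nearest below the 2-fold mark, as Slc11a1 is the nearest above it. Spic passed the mark when each array was centred on its median (1.17) and with another background correction, normexp (1.02). Of its relatives in the ETS family, Spib, the factor SPI-B of B cells and plasmacytoid dendritic cells, gave 23400 on the array labelled knockout and 25700 on the wild-type array (-0.07 ± 0.20). Spi1, the gene of PU.1, passed the background mark on 1 array alone. It gave 27.6 on the array labelled knockout and 9.36 on the wild-type array, where it did not pass, and was at least 1.17-fold higher in the knockout, its bright signal set against the lowest signal well above background on the other array. With normexp the Spi1 difference was -0.87, but normexp also gave low values to other dim genes. Tfr2, at 15.9 on the array labelled knockout and 15.7 on the wild-type array, had -1.13 with normexp. The direction of Spi1 thus differed with the background correction and is not settled.

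Haem capture and breakdown were represented by Cd163, Hmox1 and Blvrb. Cd163 encodes the receptor for haptoglobin bound to haemoglobin. Its single probe gave 3.15 on the array labelled knockout and 4.95 on the wild-type array. The dimmest probes counted as well above background gave 9.60 on the array labelled knockout and 24.6 on the wild-type array, so neither value is a measured level and no fold is given. The related scavenger receptor gene Cd163l1 was measured, with 1630 on the array labelled knockout and 914 on the wild-type array (0.90 ± 0.20).

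Hmox1 encodes the inducible haem oxygenase, which opens the haem ring. Its brighter probe gave 526 on the array labelled knockout and 341 on the wild-type array, a difference of 0.69 ± 0.21 or 1.61-fold. Its dimmer probe gave 44.7 on the array labelled knockout and 51.2 on the wild-type array, a difference of -0.13 ± 0.26. The 2 probes thus disagreed by 0.82 on the log2 scale, where the error of the gap is 0.33. Among 2442 genes with 2 probes measured on both arrays the median gap was 0.29, and 16.1% had a gap of at least 0.8. Hmox2, the constitutive haem oxygenase, differed by 0.27 ± 0.20 and 0.42 ± 0.20 at its probes. The direction of Hmox1 therefore rests on the brighter probe, and averaged over both probes its difference was 0.28.

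Blvrb encodes biliverdin reductase B, an enzyme that also reduces flavins and is abundant in red cells. It gave 8380 on the array labelled knockout and 8440 on the wild-type array, and after scaling the difference was 0.06 ± 0.20. That is less than the scanner error. Blvra, which makes bilirubin from the main product of haem breakdown, gave 1530 on the array labelled knockout and 1150 on the wild-type array (0.48 ± 0.20), while its dimmer probe differed by 0.19 ± 0.21. Within the same arrays Hmox1 and Blvrb differed unequally, by 0.64 ± 0.29 at the brighter Hmox1 probe (which the dimmer one does not match), and this gap ran from 0.17 with normexp to 0.68 over 6 other scalings and signals.

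Iron storage was represented by the ferritin subunits. Fth1 encodes the heavy chain, which oxidises iron as it enters the ferritin shell. It gave 83700 on the array labelled knockout and 56300 on the wild-type array, a difference of 0.64 ± 0.20 or 1.56-fold. Ftl1 encodes the light chain, which helps form the iron core. Its brighter probe gave 78400 on the array labelled knockout and 79200 on the wild-type array (0.05 ± 0.20). Its dimmer probe gave 4370 on the array labelled knockout and 4190 on the wild-type array (0.13 ± 0.20), so both probes of the light chain lay within their error of 0. The heavy chain's difference exceeded that of the light chain by 0.59 ± 0.29, and by 0.53 to 0.59 over 6 other scalings and signals. Both ferritin genes have near-identical processed copies in the mouse genome, and the probe sequences were not used here, so hybridisation from such copies cannot be told apart from the genes' own. Ftmt, the mitochondrial ferritin, passed the background mark on neither array.

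Iron transport was represented by Slc40a1 and Slc11a1. Slc40a1 encodes ferroportin, the only known exporter of iron from vertebrate cells. It gave 499 on the array labelled knockout and 415 on the wild-type array, a difference of 0.33 ± 0.21 or 1.26-fold. This is a small shift, exceeded by 21.6% of all measured genes. Slc11a1 encodes NRAMP1, which moves iron and other metals out of the phagosome. It gave 274 on the array labelled knockout and 138 on the wild-type array, a difference of 1.06 ± 0.21 or 2.08-fold. With normexp it was 0.32, and the gene no longer passed 2-fold. Slc11a2, the related transporter of endosomes, differed by 0.17 ± 0.20 at its brighter probe. Neutrophils and monocytes also express Slc11a1. Their list had a median difference of 0.23 over 12 genes, of which 0 of 12 were 2-fold apart. Its unscaled summed signal was 212328 on the array labelled knockout and 222396 on the wild-type array, whose 75th percentile was also higher (584 against 558). S100a9 alone gave 89000 on the array labelled knockout and 92000 on the wild-type array. The part of neutrophils and monocytes in the Slc11a1 value was not tested.

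Vcam1 and Adgre1 encode surface proteins by which these macrophages are recognised. Adgre1 encodes F4/80, an adhesion G protein-coupled receptor of mouse macrophages. Its brighter probe gave 2510 on the array labelled knockout and 1120 on the wild-type array, a difference of 1.23 ± 0.20 or 2.35-fold. Its dimmer probe gave 204 on the array labelled knockout and 92.2 on the wild-type array, a difference of 1.21 ± 0.22 or 2.32-fold. The probes gave the same difference within 0.02, although normexp took the dimmer one to 0.21 and the brighter one to 1.32. Of its relatives, Adgre4 gave 598 on the array labelled knockout and 360 on the wild-type array (0.80 ± 0.21). Adgre5, which encodes CD97 of most leukocytes, gave 10200 on the array labelled knockout and 11000 on the wild-type array (-0.04 ± 0.20).

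Vcam1 encodes the adhesion molecule VCAM-1, which binds the integrin VLA-4. Its brighter probe gave 4080 on the array labelled knockout and 1670 on the wild-type array. The difference of 1.35 ± 0.20, or 2.56-fold, was the highest of the 9 genes, and 1.44% of all measured genes exceeded it. Its dimmer probe gave 128 on the array labelled knockout and 110 on the wild-type array (0.28 ± 0.22). The gap of 1.07 between the probes is one that 10.4% of genes with 2 probes reached or passed (gaps of at least 1), and the mean over both, 0.82, was under 2-fold. Markers of endothelium and stroma, cells that also make VCAM-1, were higher in 12 of 16 measured genes. The 4 lower ones were Pecam1 (-0.44), Icam2 (-0.14), Madcam1 (-0.13) and Cdh5 (-0.04). Kdr, counted as higher (0.85), had a dimmer probe at -0.74. Of the 16, 5 were at least 2-fold higher, which became 1 with normexp and 8 with median centring. Of all genes 3.97% were so, which became 1.5% with normexp and 6.22% with median centring. The median over the 16 was 0.78 (0.22 with normexp). Their summed signal was 19380 on the array labelled knockout and 15968 on the wild-type array. Tek was not above background on either array, and the part of these cells in the Vcam1 value was not tested. Icam1 (-0.25 ± 0.23) and Madcam1 (-0.13 ± 0.20), other adhesion molecules of the immunoglobulin family, did not share the higher value.

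**Figure D2:**
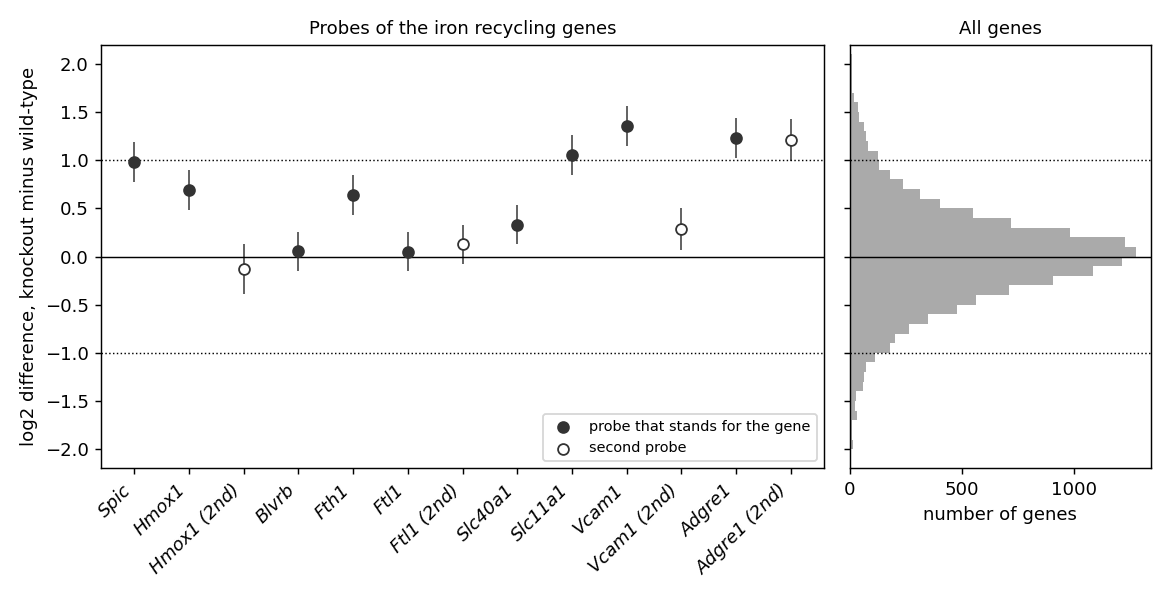
Left, log2 difference (knockout minus wild-type) of the 13 probes well above background on both arrays, with bars for the scanner's error; filled points are the probe that stands for the gene and open points are second probes. Right, the same difference for all 12958 measured genes (53 beyond ±2.2 are not drawn), with dotted lines at 2-fold. Of the 13 probes 12 lie above 0, 4 lie above the upper dotted line, and the second probes of Hmox1 and Vcam1 sit well below the first ones.

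By probe rather than by gene, 4 of the 13 measured probes were at least 2-fold higher on the array labelled knockout, where 3.45% of the 16417 measured probes of all genes were. The 4 were both probes of Adgre1, the brighter probe of Vcam1 and the probe of Slc11a1. Probes spotted 10 times on each array give a sense of the reading error: over 258 such probes above background on both arrays, the SD of the log2 difference between spots had a median of 0.043 and a highest value of 0.64. Each of the 14 probes of the 10 genes was spotted once.

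The stretch before the transcription start was examined for the genes that have one in the RefSeq table of GRCm38.p6, 250 bases upstream of each annotated start. Of the 10 genes, 6 had at least 1 such window, 8 windows in all: Spic, Cd163, Slc11a1, Fth1, Ftl1 and Blvrb. Slc11a1 and Spic are printed because their transcripts differed by about 2-fold, and Ftl1 for contrast because its difference was near 0. Sequences run 5′ to 3′ in the sense of the gene, and capitals mark GAGGAA, a core bound by PU.1 and related ETS factors, searched on both strands.
Slc11a1, chr1:74374953-74375202, plus strand: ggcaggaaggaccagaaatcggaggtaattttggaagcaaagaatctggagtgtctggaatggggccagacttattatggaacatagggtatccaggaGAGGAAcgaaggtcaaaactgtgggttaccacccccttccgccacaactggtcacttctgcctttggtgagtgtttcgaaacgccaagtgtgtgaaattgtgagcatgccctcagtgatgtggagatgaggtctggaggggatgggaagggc
Spic, chr10:88683024-88683273, minus strand: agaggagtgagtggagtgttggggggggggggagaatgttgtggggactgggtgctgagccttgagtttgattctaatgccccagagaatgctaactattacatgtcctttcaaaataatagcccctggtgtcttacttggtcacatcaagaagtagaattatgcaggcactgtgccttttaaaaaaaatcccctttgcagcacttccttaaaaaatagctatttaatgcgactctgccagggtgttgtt
Ftl1, chr7:45459887-45460136, minus strand: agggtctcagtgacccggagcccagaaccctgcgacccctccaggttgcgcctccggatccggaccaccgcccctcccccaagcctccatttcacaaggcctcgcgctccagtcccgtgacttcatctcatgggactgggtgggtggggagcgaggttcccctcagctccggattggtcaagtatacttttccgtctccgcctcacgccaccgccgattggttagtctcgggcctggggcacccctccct
The Slc11a1 window held the only match among the 8, its first base at -152 from the start. Spic and Ftl1 held none, and 23.3% of all 32817 windows held at least 1. The core of the antioxidant response element, TGACNNNGC, to which NRF2 and BACH1 bind with small MAF proteins, was in none of the 8 windows and in 10.2% of all. The 2 motifs cannot overlap in these windows, since only the first was found. A match or its absence in so short a window describes the letters only.

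The other genes of iron handling went both ways. The list held 41 genes for iron uptake, storage, export and haem breakdown, and all 41 had a probe. Of the 31 measured on both arrays, 21 were higher and 10 were lower in the knockout, with a median difference of 0.26. At least 2-fold higher were 4 (12.9% of the 31), and 1 was at least 2-fold lower. A further 6 passed the background mark in the knockout alone and 0 in the wild-type alone. Over all genes these numbers were 1768 and 143, and the dimmest passing signal was lower on the array labelled knockout, as given for Cd163. Hamp, the gene of hepcidin, the hormone that degrades ferroportin, was one of the 6, at 28.8 on the array labelled knockout and 14 on the wild-type array, and its difference with normexp was -0.93.

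The 4 that were higher act in the handling of iron outside cells, in its sensing and in haem binding. Trf, which encodes the plasma iron carrier transferrin, gave 6990 on the array labelled knockout and 3260 on the wild-type array (1.17 ± 0.20), and its second probe differed by 1.30. Cp encodes ceruloplasmin, the ferroxidase that works with ferroportin. It gave 1280 on the array labelled knockout and 517 on the wild-type array (1.37 ± 0.20). Hebp1 encodes a haem-binding protein and gave 2240 on the array labelled knockout and 931 on the wild-type array (1.33 ± 0.20). Hfe, which takes part in iron sensing, was 2.21-fold higher. The lower one was Timd2, which encodes a receptor for heavy chain ferritin in mice, with 71.6 on the array labelled knockout and 201 on the wild-type array (-1.42 ± 0.21).

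Some neighbours in the pathway, chosen after values were seen, were as follows. Slc48a1 encodes HRG1, which carries haem out of the phagolysosome. It gave 6410 on the array labelled knockout and 11700 on the wild-type array (-0.80 ± 0.20), opposite in sign to Spic and Slc11a1. Hp, which encodes haptoglobin, the ligand of CD163, differed by 0.58 ± 0.20. Ncoa4, which delivers ferritin to lysosomes, differed by -0.35 ± 0.20, and the iron chaperone genes Pcbp1 and Pcbp2 by -0.06 and -0.29. Tfrc encodes the transferrin receptor. Its brightest probe, spotted 10 times, gave 332 on the array labelled knockout and 507 on the wild-type array (-0.54 ± 0.21). That error is no smaller than the one of Slc40a1, whose probe was spotted once. The dimmer Tfrc probes differed by -1.32 ± 0.41 and -1.23 ± 0.27, at low signals. These were 11.4 and 23.9 on the array labelled knockout and 29.8 and 58.5 on the wild-type array.

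Regulators of the pathway were mixed. Of 18 measured on both arrays, 12 were higher and 6 lower, with a median of 0.20, and 3 (16.7%) were at least 2-fold higher. Nr1h3, the oxysterol receptor LXRα of macrophages, gave 5140 on the array labelled knockout and 2070 on the wild-type array (1.38 ± 0.20), and its second probe differed by 1.72. Maf, a transcription factor of macrophages that T cells make as well, was 2.14-fold higher. Epas1, which encodes HIF-2α, a factor that also acts on ferroportin, had probes of opposite sign, 0.98 at the brightest, -0.89 and 0.18 at the others. Bach1, the haem-sensing repressor of Hmox1 and Spic, differed by 0.17 ± 0.20, and Nfe2l2 (NRF2), which activates Hmox1 and the ferritin genes, by 0.47 ± 0.20. Ireb2, which encodes the iron regulatory protein IRP2, gave 94.7 on the array labelled knockout and 171 on the wild-type array (-0.79 ± 0.21), and Fbxl5, which marks IRP2 for degradation, differed by -0.44 ± 0.21.

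Most other markers of red pulp macrophages also gave more signal on the array labelled knockout. Of 17 measured, 15 were higher and 2 lower, with a median of 0.89 that was 0.15 with normexp. The 6 past 2-fold (35.3%) included Cd5l, a secreted protein of tissue macrophages, with 3330 on the array labelled knockout and 1700 on the wild-type array (1.04 ± 0.20). Mrc1, the mannose receptor (1.39), C1qc, a chain of complement C1q (1.25, against 0.10 for C1qa and 0.30 for C1qb, the other chains, which were -0.06 and -0.52 with normexp), the receptor kinases Axl (1.22) and Mertk (1.08), and Hpgd, which degrades prostaglandins (1.54), were the others. With normexp only Cd5l and C1qc of these 6 stayed past 2-fold, at 1.19 and 1.39, and Mertk turned to -0.45. Treml4 (-0.65) and Actn1 (-0.45) were the lower ones. The summed signal of the 17 was 30050 on the array labelled knockout and 17207 on the wild-type array. Csf1r alone gave 11700 on the array labelled knockout and 6580 on the wild-type array (0.90 ± 0.20). Its dimmer probes lay the other way, at -0.14 ± 0.26 and -0.57 ± 0.21.

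Markers of red cells, whose haemoglobin these macrophages digest, lay the other way. Of 11 measured erythroid genes, 9 were lower in the knockout and 2 were higher, with a median of -0.49. Hba-a2, an alpha globin gene, gave 12900 on the array labelled knockout and 19100 on the wild-type array (-0.50 ± 0.20). Alas2, which starts haem synthesis in developing red cells, was 2.22-fold lower (-0.96 on the log2 scale with median centring). It was dim, at 23.9 on the array labelled knockout and 55.4 on the wild-type array (-1.15 ± 0.27). Their summed signal was 17974 on the array labelled knockout and 25906 on the wild-type array, and 7 further genes of the list, Klf1 and Kel among them, were not above background on either. The part of red cells in the values of Blvrb and the ferritin genes, which they also express, was not tested. T cell markers had a median of 0.02 (-0.05 with the mean over probes), with Cd3e 2.18-fold lower, and B cell markers one of -0.22, with Blk at -1.41 and Cd79a at -1.18.

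**Figure D3:**
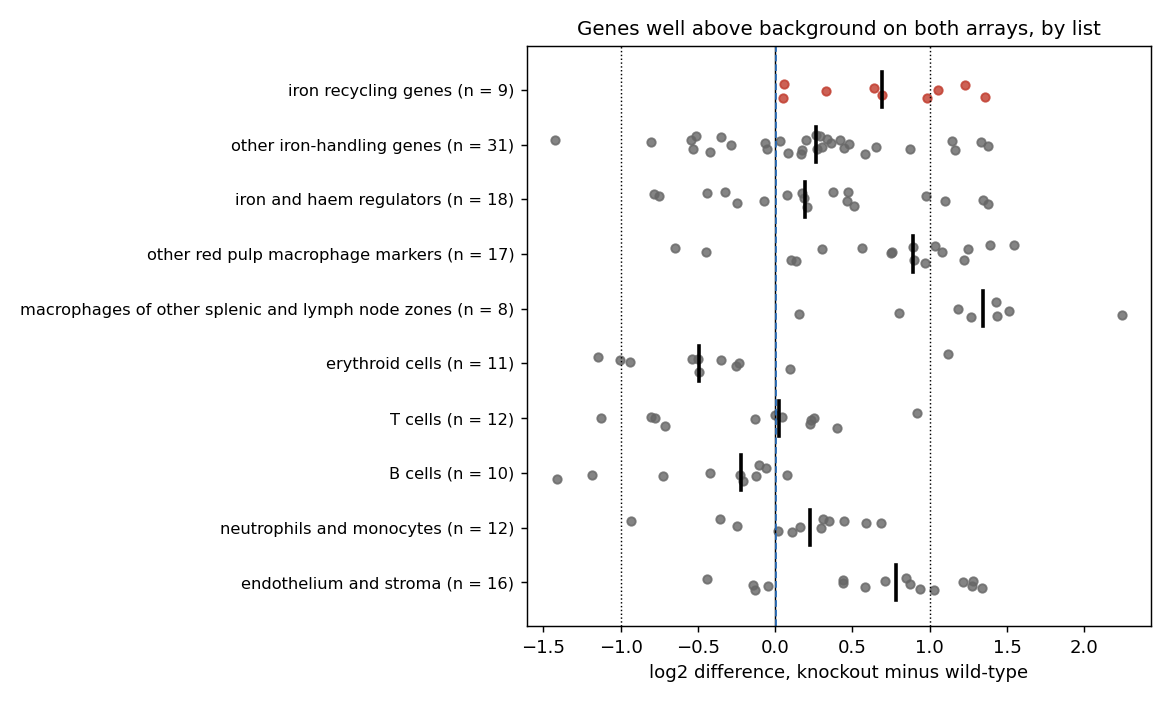
Log2 difference (knockout minus wild-type) of each gene well above background on both arrays, 1 point per gene, for the iron recycling genes in red and 9 other lists in grey; black bars are list medians, dotted lines mark 2-fold and the dashed line is the median of all genes. The medians of the iron recycling genes (0.69), the other red pulp markers (0.89) and the macrophages of other zones (1.35) lie to the right, and that of the erythroid genes (-0.49) to the left.

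The values of the 10 genes moved with the processing in a few places. The 9 measured genes kept a positive difference under all 8 alternative settings, in which the median of all genes shifted by 0.19 when arrays were centred on their median and by -0.12 when dim probes were kept. Adgre1 was past 2-fold in 8 of 8, Vcam1 in 7 of 8 and Slc11a1 in 7 of 8, while Spic passed it in 2 of 8. Hmox1, Fth1, Slc40a1, Ftl1 and Blvrb passed it in 0 of 8. Keeping outlier spots or dim probes left the values of all 9 genes unchanged, and the mean over probes can change only genes with 2 probes. These tallies therefore hold repeats of the same value and are not independent checks.

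**Figure D4:**
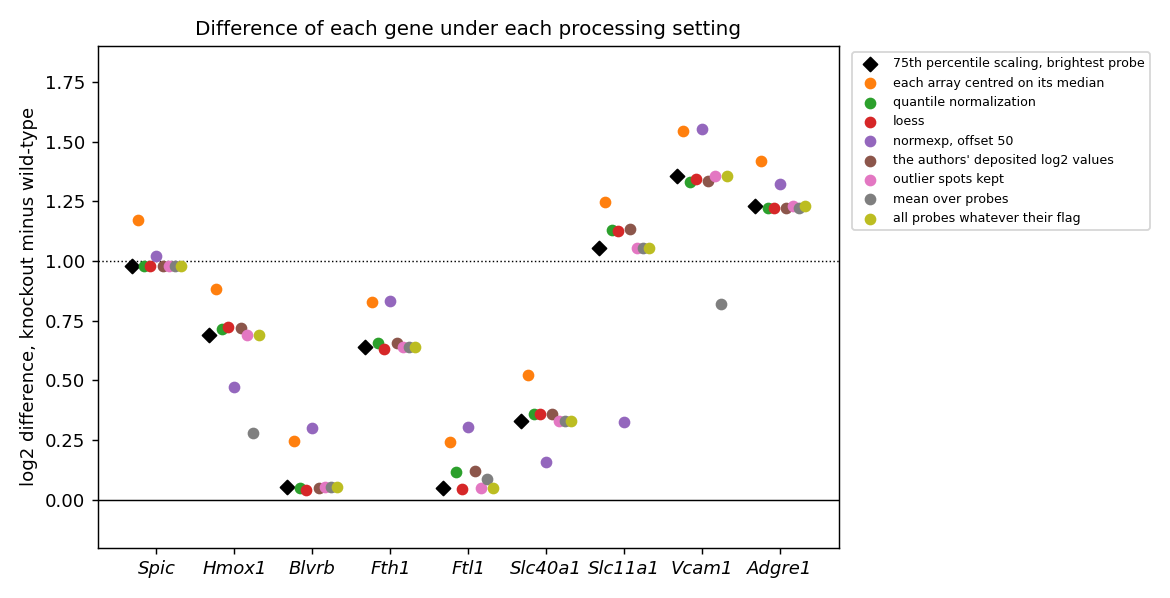
Log2 difference (knockout minus wild-type) of the 9 measured genes under the 75th percentile scaling (black diamonds) and 8 alternative settings (coloured circles), with the dotted line at 2-fold. Adgre1 stays above the line throughout, Spic lies close to it, and the lowest circles of Slc11a1 (0.32, normexp) and Vcam1 (0.82, mean over probes) fall below it.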

How the data were processed

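Spots were read by the authors in Agilent Feature Extraction 11.0.1.1, per the submitters' processing notes. Both lay on the same slide and scan, per the headers, so these do not differ between genotypes. The deposited scanner files hold an intensity per spot (processed signal, background-subtracted by the scanner software), its error, median pixel intensities and flags. The deposited value table holds log2 values with a median of 5.36 in both columns, ranked as the processed signal (Spearman 0.989 on the array labelled knockout and 0.9995 on the wild-type array, across single-spot probes). Their normalization and centring are not given in the sources used here.

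Spots flagged as feature outliers (138 on the array labelled knockout and 228 on the wild-type array, of 43020) and control spots were left out, spots of a probe were averaged on the log2 scale, and 39411 probes remained. Of these, 27220 matched a gene through an unversioned accession in the RefSeq table of GRCm38.p6. The array design names another build, so no probe coordinates are printed, and 12191 probes were not analysed. A gene stands by its brightest probe flagged as well above background (on either array) and is counted where both arrays flag that probe so. The 2-fold mark is 1 on the log2 scale. The arrays' small number (1 per genotype) limits the precision. Members and lists were chosen with earlier results of these data known. The genes named beyond them are, per list, up to 6 past 2-fold by size, else the 2 largest, and relatives or pathway neighbours chosen after values were seen. A gene that this rule takes is not reported here. Alternatives were median centring, quantile normalization, loess, normexp with an offset of 50 on the median intensity, the deposited table, the mean over probes, no filter, outliers kept, and 1.5-fold and 3-fold thresholds. The calling function was tested on simulated data. R 4.3.3, limma 3.58.1, Python 3.11.15, numpy 2.4.6 and pandas 2.3.3 were used.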

Additional observations from a re-analysis of the deposited data

How the results depend on the processing

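The count of iron recycling genes past 2-fold was 3 and stayed between 2 and 4 over the 8 settings that kept that threshold. It was 6 at 1.5-fold and 0 at 3-fold. For the other iron-handling genes the count of 5 became 10 (7 higher, 3 lower) with all probes whatever their flag, 8 at 1.5-fold and 0 at 3-fold. The median over the iron recycling genes, 0.69, was 0.47 with normexp, and the cause was not tested. Among all genes, 52.2% of those past 2-fold were higher, against 73.6% with median centring, 63.8% with quantile normalization, 63.9% in the authors' deposited table and 12.9% with normexp. Of the 9 measured iron recycling genes, 0 were past 2-fold in the lower direction under any of these. With normexp 10.2% of all genes were at least 2-fold lower, against 3.63% with the 75th percentile scaling, and many dim genes took lower values. Slc46a1, at 79.7 on the array labelled knockout and 74 on the wild-type array, went from 0.17 to -0.68. A change of sign with normexp at a dim gene is therefore not particular to that gene. Cd163, below background, had no measured difference. The erythroid median stayed below 0 over the 8 settings, between -0.49 and -0.30. No paired analysis was possible because each genotype has 1 array, and for the same reason no replicate could be left out.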

Other observations

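Markers of macrophages of other zones of spleen and lymph node were also examined. Of 8 measured genes, 8 were higher on the array labelled knockout and 6 at least 2-fold, with a median of 1.35 (0.98 with normexp). Siglec1 (0.80) and Clec4e (0.16) were under 2-fold, and with normexp both were lower (-0.58 and -0.07). Cd209d, a C-type lectin gene of the DC-SIGN family, gave 2990 on the array labelled knockout and 660 on the wild-type array, 4.74-fold higher (2.25 ± 0.20). Marco, a scavenger receptor of marginal zone macrophages, gave 12000 on the array labelled knockout and 4650 on the wild-type array (1.43 ± 0.20). Lyve1 (1.43), Cd209a (1.51), Cd209b (1.26) and Timd4 (1.18) were also past 2-fold, and with normexp Cd209a and Cd209b were not (0.92 and 0.49). The list's summed signal was 18247 on the array labelled knockout and 6851 on the wild-type array.

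Among neutrophil and monocyte genes the largest differences were those of Ngp (-0.93) and Cxcr2 (0.68, -0.70 with normexp). In the endothelial and stromal list Vwf (1.34, -0.27 with normexp), Col1a2 (1.28), Stab2 (1.27), Pdgfrb (1.22) and Col3a1 (1.03) were past 2-fold. With normexp only Col1a2 of these stayed so (1.26), with Stab2 at 0.91, Pdgfrb at 0.52 and Col3a1 at 0.91. Among erythroid genes Epor was 2.17-fold higher (-0.22 on the log2 scale with normexp) and Tspo2 2.01-fold lower (-0.82 on the log2 scale with median centring and -0.92 in the authors' deposited table). With median centring, quantile normalization and the deposited values, 0 erythroid genes were 2-fold lower, and with normexp 3 were.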
